A study of Mus musculus with 10 samples.

Results

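Cation chloride cotransporters and sodium proton exchangers are membrane proteins that move ions across the plasma membrane with no direct use of ATP. The 5 genes described here are Slc12a2, Slc12a4, Slc12a5, Slc12a7 and Slc9a2, chosen by name from the 55450 genes of the count table, and all 5 were found in it. They were measured in corneal endothelium, the thin inner lining of the cornea, peeled from C57BL/6 mice aged 12 weeks. The Slc4a11-/- group (KO) lacks both working copies of Slc4a11, a membrane transport gene of that layer, and the Slc4a11+/+ group (WT) has them. Each group had 5 libraries, named here by genotype and number, and each pooled 6 peelings of 3 animals. Errors given below are therefore spreads between pools. The design compares KO with WT to find the transcripts that differ when Slc4a11 is missing. Other alleles or treatments are not named in the labels.

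SLC12 proteins carry chloride together with sodium, potassium or both, and the direction depends on the partner ion. Slc12a2 encodes NKCC1, which brings sodium, potassium and chloride into the cell, while Slc12a4 (KCC1), Slc12a5 (KCC2) and Slc12a7 (KCC4) encode potassium chloride cotransporters, which let both ions out. WNK kinases act through the kinases SPAK and OSR1 to switch NKCC1 on and the KCC proteins off, for example when cell volume changes. SLC9 proteins such as Slc9a2 (NHE2) exchange sodium for protons and so set cell pH. In corneal endothelium such transporters work beside the sodium pump and bicarbonate transporters in moving fluid out of the stroma.

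Total counts per library ranged from 36026193 to 51008996, and 1 count was worth 0.0198 to 0.0273 CPM, the unit used here for counts scaled to library size with TMM factors. Slc4a11 itself went from 3791 ± 362 CPM (WT) to 95.4 ± 16.2 CPM (KO; SD, n = 5 each), so every library matched its label. Of 8 listed markers of corneal endothelium 1, Atp1b1, fell in KO (log2 fold change -0.32, edgeR adjusted p = 0.016), and the median of the 8 was 0.02. Slc4a4 was at -0.31 and not called (edgeR adjusted p = 0.0703). The summed level of the 8 was 12724 to 14017 CPM in WT and 10873 (KO 5) to 14030 CPM in KO. Col8a2 alone was at 7374 ± 432 CPM in WT (SD, n = 5), so the sum mostly follows that gene. Transcripts of stromal keratocytes were also abundant, at 48663 to 73902 CPM in WT and 49634 to 65698 CPM in KO summed over 8 markers. Of these 1 rose (Thy1, log2 fold change 1.61) and 2 fell (Kera, -0.48, and Ptgds, -0.83), with edgeR adjusted p of 0.0424, 0.0300 and 0.0398. Thy1 was low, at means of 0.201 CPM in WT and 0.628 CPM in KO, with 4 to 46 reads per library. Of 4 lens markers 3 were tested and 2 rose. Of 3 vessel markers 1, Kdr, fell (log2 fold change -0.52, edgeR adjusted p = 0.0058). Pecam1 and Cdh5 went the other way and were not called (0.95 and 0.89, edgeR adjusted p of 0.116 and 0.0821). Of 10 epithelial markers 8 were higher in KO, and they set KO libraries apart from each other: their sum was 2047 CPM in KO 1, 597 in KO 2, 42.1 in KO 3, 228 in KO 4 and 3968 in KO 5, against 48.1 to 198 CPM in WT. Of the 17729 genes with enough counts to be tested, 1346 were higher and 1370 lower in KO at an adjusted p under 0.05 (edgeR quasi-likelihood test with Benjamini-Hochberg adjustment over all genes tested), which is 15.3% of them. With scaling by total counts in place of TMM, 1555 were higher and 1054 lower.

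Only Slc12a5 among the 5 genes passed the test, and it was lower in KO. Slc12a2, Slc12a4 and Slc12a7 were tested and did not pass, and Slc9a2 had too few counts to be tested. The call of 1 in 4 tested genes stands beside the 15.3% of all tested genes called in either direction and the 7.73% called lower. The median log2 fold change of the 4 tested genes was -0.13, against 0.00 for all genes tested.

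**Figure D1:**
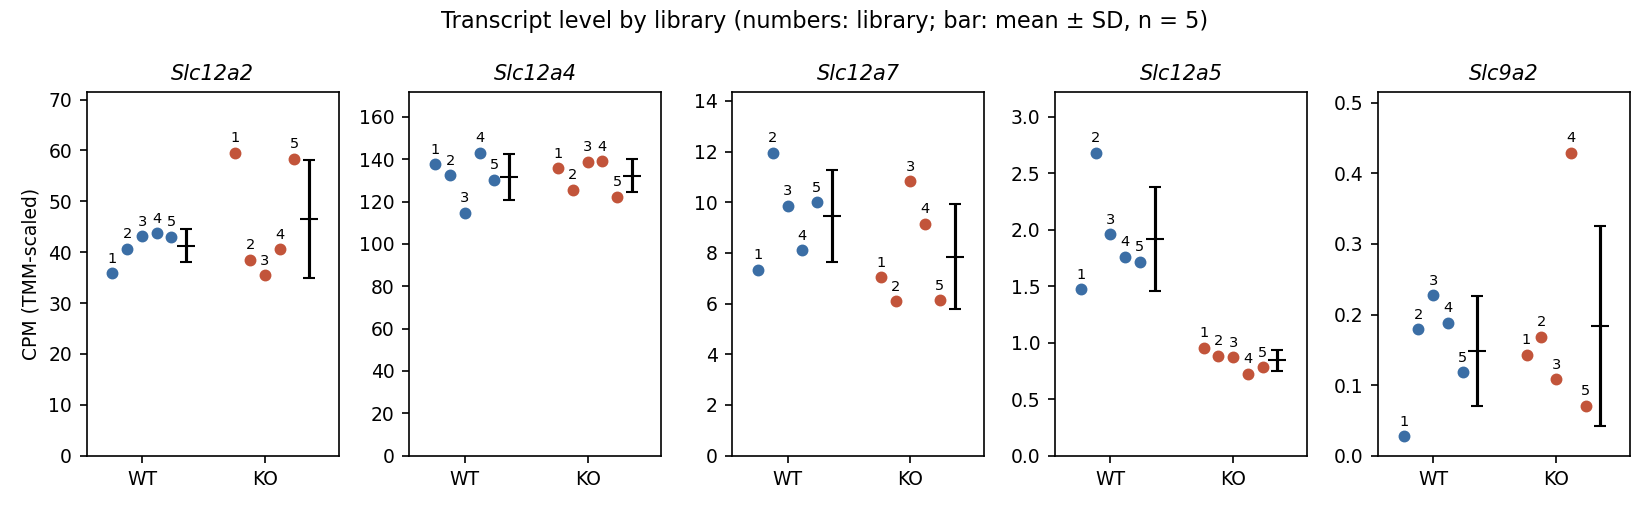
CPM of each of the 5 genes in every library, WT in blue and KO in red, with the library number above each point and the group mean ± SD (n = 5) as a black bar; each panel has its own axis from 0. Slc12a5 is the gene whose 2 groups lie apart, Slc12a2 is high in KO 1 and KO 5, and Slc12a4 overlaps between the groups.

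Transcript levels per length, in CPM per kilobase of exon, spanned a wide range among SLC12 and SLC9 genes. The length was the union of all exons annotated for a gene, whichever of its transcripts were present. Slc12a4 was the highest of the SLC12 and SLC9 genes compared, at 30.8 ± 2.50 CPM per kb in WT and 30.9 ± 1.83 in KO (SD, n = 5 each), and it was above the next gene shown, the Golgi-associated exchanger Slc9a7, in 10 of 10 libraries with no overlap of their ranges. Slc12a2 stood in the middle of the order, at 3.78 ± 0.300 CPM per kb in WT and 4.26 ± 1.06 in KO. Its level overlapped those of its neighbours Slc12a9, a family member of less known function, and Slc9b2, a sodium proton exchanger of the SLC9B branch. Slc12a7 was lower, at 0.746 ± 0.143 and 0.619 ± 0.164 CPM per kb, and the next gene above it, the exchanger Slc9a8, did not overlap with it. That order depends on the annotated exon lengths, 12669 bases for Slc12a7 and 9095 for Slc9a8. Slc12a5 was at 0.258 ± 0.0619 CPM per kb in WT and 0.113 ± 0.0121 in KO. Its range overlapped with that of Slc9a5, which was above it in 10 of 10 libraries, and not with that of Slc12a8 below it. Slc9a2 was at 0.0212 ± 0.0112 and 0.0264 ± 0.0203 CPM per kb, where its range overlapped with those of Slc12a8 and Slc9b1. Slc12a1 and Slc12a3, the cotransporters of the kidney tubule that loop diuretics and thiazides block, were at most at 0.134 CPM in any library.

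**Figure D2:**
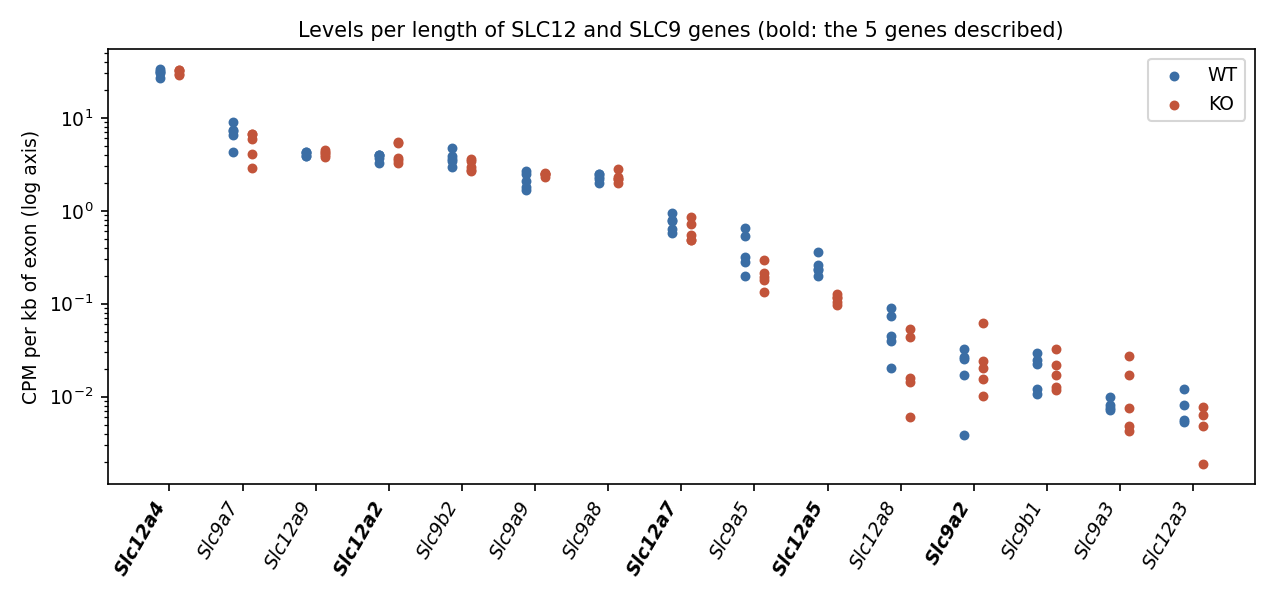
Level per kilobase of exon on a log axis for compared SLC12 and SLC9 genes whose mean reached 0.005 CPM per kb, each point a library (WT blue, KO red; libraries at 0 are not drawn), with the 5 genes described in bold. Slc12a4 stands highest and Slc9a2 near the lower end, at 0.0212 CPM per kb in WT.

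Slc12a5 encodes KCC2, the cotransporter best known from neurons, where it keeps cell chloride low and so makes GABA inhibitory. The gene (ENSMUSG00000017740.17) spans 164960802 to 164999731 of chromosome 2 (GRCm38, plus strand), 34.3 Mb from Slc4a11 on the same chromosome. RefSeq gives it 2 start sites, the second inside the gene, and the 250 bases before each are shown because it is the gene that passed the test. The same stretch of Slc12a4, the most abundant gene of the family here, and of Slc9a3r1, a partner gene that rose (values below), are shown for comparison. Capitals mark letters that match a motif searched on both strands: the GC box GGGCGG, the E-box CACGTG, the CCAAT box CCAAT, the EGR motif GCGNGGGCG and the TATA box TATAAA.
Slc12a5 first start, GRCm38.p6 chr2:164960596-164960845, plus strand: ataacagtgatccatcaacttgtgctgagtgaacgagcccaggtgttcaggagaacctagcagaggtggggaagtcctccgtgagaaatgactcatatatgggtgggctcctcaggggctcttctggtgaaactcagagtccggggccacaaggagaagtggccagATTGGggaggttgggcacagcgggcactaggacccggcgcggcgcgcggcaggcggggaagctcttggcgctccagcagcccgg
Slc12a5 second start, GRCm38.p6 chr2:164967738-164967987, plus strand: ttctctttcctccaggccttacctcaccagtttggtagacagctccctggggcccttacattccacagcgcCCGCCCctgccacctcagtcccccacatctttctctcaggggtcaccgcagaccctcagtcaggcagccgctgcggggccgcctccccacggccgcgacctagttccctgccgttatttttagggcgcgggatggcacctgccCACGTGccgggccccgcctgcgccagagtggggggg
Slc12a4, GRCm38.p6 chr8:105966116-105966365, minus strand: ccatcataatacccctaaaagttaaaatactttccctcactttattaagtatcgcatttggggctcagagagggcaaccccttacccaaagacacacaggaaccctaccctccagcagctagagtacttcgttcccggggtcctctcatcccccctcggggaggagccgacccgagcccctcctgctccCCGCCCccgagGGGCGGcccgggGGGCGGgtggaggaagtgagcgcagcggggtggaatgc
Slc9a3r1, GRCm38.p6 chr11:115163091-115163340, plus strand: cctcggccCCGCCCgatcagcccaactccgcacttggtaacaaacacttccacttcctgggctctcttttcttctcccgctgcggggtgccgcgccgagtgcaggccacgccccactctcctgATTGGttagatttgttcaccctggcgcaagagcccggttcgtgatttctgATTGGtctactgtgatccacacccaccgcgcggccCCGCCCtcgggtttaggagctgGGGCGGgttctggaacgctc
The stretch before the first Slc12a5 start held 1 CCAAT box and no other match, with 61.2% G and C. The one before the second start held 1 GC box and 1 E-box, with 67.2% G and C. Slc12a4 had 3 GC boxes in 60.8% G and C, and Slc9a3r1 had 3 GC boxes and 2 CCAAT boxes in 62.8% G and C. Among 32851 RefSeq stretches of the same length, 32.7% held a GC box, 6.02% an E-box, 33.9% a CCAAT box, 4.70% an EGR motif and 12.4% a TATA box, and the median was 52.4% G and C. Counts per gene do not tell which start was used.

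In WT, Slc12a5 was at 1.47, 2.68, 1.96, 1.76 and 1.72 CPM in libraries 1 to 5. In KO it was at 0.954, 0.885, 0.869, 0.725 and 0.782 CPM. Every KO library lay under every WT library, and the KO libraries were close together while WT 2 stood highest; 6.16% of all tested genes had KO libraries all below WT. The mean fell from 1.92 ± 0.461 to 0.843 ± 0.0901 CPM (SD, n = 5 each), a log2 fold change of -1.18 (SE 0.18, edgeR adjusted p = 0.00112), or 2.27-fold lower. The counts behind these values were low, with 54 to 120 reads in WT and 27 to 42 in KO. Without WT 2 the log2 fold change was -1.03 (edgeR adjusted p = 0.00185), and with the KO group limited to KO 3 and KO 4, its 2 libraries lowest in epithelial transcripts, it was -1.25 (edgeR adjusted p = 0.0218). In a pooled tissue, fewer cells of a type and less RNA per cell cannot be told apart.

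Markers of nervous tissue were read beside Slc12a5. All 8 neuron markers listed were under 1 CPM in every library, and their sum was 0.410 to 0.916 CPM in WT and 0.644 to 1.54 CPM in KO, with the higher range in KO. Rbfox3 and Gad1, which mark mature and GABA-releasing neurons, were at most at 0.109 and 0.0273 CPM and at 0 in some libraries of each genotype. Of 5 Schwann cell markers 4 were higher in KO, with sums of 56.7 to 64.9 CPM in WT and 79.5 to 113 CPM in KO; their part in the Slc12a5 result was not tested. Photoreceptor markers (Gnat1, Sag and Rcvrn) summed to 2.49 to 8.61 CPM in WT and 0.805 to 5.06 CPM in KO. Of the 3, 2 were tested and 0 passed by edgeR (Gnat1 adjusted p = 0.0543, Sag 0.111), with a median log2 fold change of -1.38. Rcvrn had too few counts to be tested, and was at 0.230 to 0.760 CPM in WT and 0 to 0.119 CPM in KO. WT 2 had the highest photoreceptor sum and the highest Slc12a5. WT 4, at a sum of 2.49 CPM, had 1.76 CPM of Slc12a5, and KO 3, at a sum of 5.06 CPM, had 0.869 CPM. With the mean log2 CPM of the photoreceptor markers as a covariate, chosen after the data had been seen, Slc12a5 was at -1.03 (SE 0.26) and no longer called (edgeR adjusted p = 0.0732), and 411 genes were called in that fit. For the marker covariates a constant was added to each CPM before the log2, which weighs most on low markers such as Rcvrn.

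**Figure D3:**
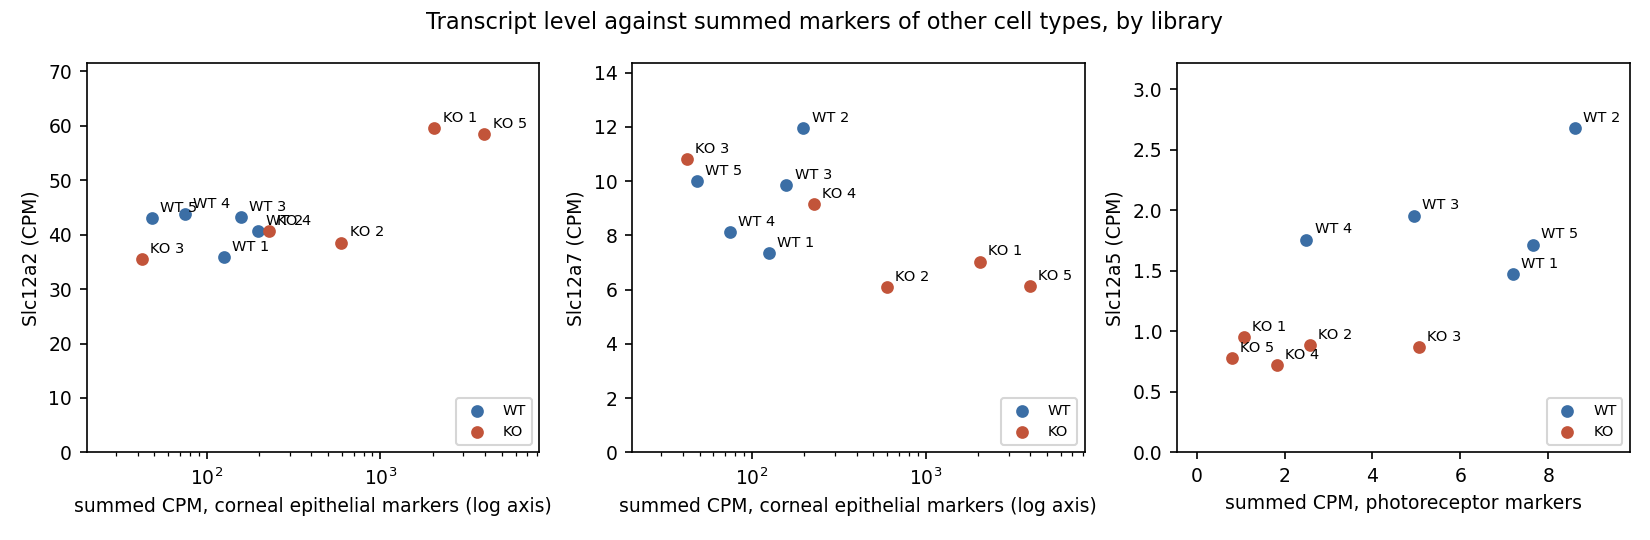
CPM of Slc12a2 and Slc12a7 against the summed CPM of 10 epithelial markers (log axis), and of Slc12a5 against the summed CPM of 3 photoreceptor markers, each point a named library (WT blue, KO red). KO 1 and KO 5 are high in epithelial transcripts and in Slc12a2. The photoreceptor sum of KO 3 (5.06 CPM) is close to that of WT 3 (4.94 CPM), and that of WT 4 is 2.49 CPM.

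Slc12a4 encodes KCC1, the potassium chloride cotransporter found in most tissues, where it takes part in volume control. The gene (ENSMUSG00000017765.17) spans 105943590 to 105966097 of chromosome 8 (GRCm38, minus strand). It was at 138, 132, 115, 143 and 130 CPM in WT 1 to WT 5. KO 1 to KO 5 had 136, 126, 139, 139 and 122 CPM, all within the WT range. The log2 fold change was 0.01 (SE 0.07, edgeR adjusted p = 0.957) and its 95% interval was -0.14 to 0.15, with 5039 to 6834 reads per library. Gm16156, an antisense gene that overlaps 361 bases (8.44%) of its exons, had at most 0.0238 CPM.

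Slc12a2 encodes NKCC1, which loads chloride into secretory and other cells. The gene (ENSMUSG00000024597.11) is on chromosome 18. WT 1 to WT 5 had 35.8, 40.7, 43.1, 43.7 and 43.1 CPM. KO 1 to KO 5 had 59.6, 38.5, 35.4, 40.6 and 58.4 CPM. KO 1 and KO 5 were above all other libraries, KO 2 and KO 4 lay inside the WT range, and KO 3 was just under it. Over all libraries the log2 fold change was 0.17 (SE 0.14, 95% interval -0.14 to 0.48, edgeR adjusted p = 0.438). KO 1 and KO 5 were also the 2 libraries with the highest epithelial sums (2047 and 3968 CPM). With the KO group limited to KO 3 and KO 4 the value was -0.11 (SE 0.09, edgeR adjusted p = 0.545), and it was -0.13 with the epithelial markers as a covariate (edgeR adjusted p = 0.580). The part of epithelial transcripts in the Slc12a2 levels was not tested.

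Slc12a7 encodes KCC4, a potassium chloride cotransporter known from kidney tubules and the inner ear. The gene (ENSMUSG00000017756.9) spans 73733094 to 73816754 of chromosome 13 (GRCm38, plus strand). It was at 7.33, 12.0, 9.86, 8.11 and 9.99 CPM in WT 1 to WT 5. KO 1 to KO 5 had 7.03, 6.09, 10.8, 9.15 and 6.13 CPM. KO 3 and KO 4 lay inside the WT range, and KO 1, KO 2 and KO 5, which had the 3 highest epithelial sums, lay under it. Among these 3, KO 2 had the lowest Slc12a7 and also the lowest epithelial sum (597 CPM). The log2 fold change was -0.27 (SE 0.18, 95% interval -0.66 to 0.12, edgeR adjusted p = 0.327). With the epithelial markers as a covariate it was -0.05 (edgeR adjusted p = 0.901), and it was 0.09 (SE 0.17, edgeR adjusted p = 0.824) with the KO group limited to KO 3 and KO 4. The epithelial markers themselves differed between the genotypes, and their part in the Slc12a7 levels was not tested.

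Slc9a2 encodes NHE2, a sodium proton exchanger of the apical membrane of gut and kidney epithelia. The gene (ENSMUSG00000026062.12) spans 40680574 to 40769273 of chromosome 1 (GRCm38, plus strand). It had 1, 8, 10, 9 and 6 reads in WT 1 to WT 5. KO 1 to KO 5 had 6, 8, 5, 16 and 3 reads, so the groups overlapped and the gene did not reach the count filter. The means were 0.148 ± 0.0781 CPM (WT) and 0.184 ± 0.142 CPM (KO; SD, n = 5 each; two-sided exact permutation test over 252 assignments, p = 0.730, where the smallest possible is 0.00794). KO 4 had the highest level (0.429 CPM), and without it the log2 ratio of the means turned from 0.31 to -0.27. A difference between the genotypes was not detectable at this depth.

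The 3 potassium chloride cotransporter genes described here were also set against each other by their levels per kilobase. The shares depend on the annotated exon lengths, 4279 bases for Slc12a4, 7447 for Slc12a5 and 12669 for Slc12a7. Slc12a4 made up 96.8 ± 0.731% of their sum in WT and 97.7 ± 0.386% in KO (SD, n = 5 each), and Slc12a7 2.37 ± 0.534% and 1.94 ± 0.411%. Slc12a5 made up 0.816 ± 0.210% in WT and 0.358 ± 0.0426% in KO, and the highest KO share (0.397%) lay under every WT share. The sum was 31.8 ± 2.43 CPM per kb in WT and 31.7 ± 1.97 in KO, so Slc12a5 was a small part of it in both. Slc12a2, which carries chloride the other way, stood at 12.0 ± 1.55% of that sum in WT and 13.6 ± 3.78% in KO, with KO 1 (16.8%) and KO 5 (18.3%) above the WT maximum of 14.2%.

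Of 4 other SLC12 genes compared 1, Slc12a9, had enough counts, and 0 were called by edgeR, by DESeq2 or by limma-voom, with 0 at an unadjusted p under 0.05. Slc12a9 was at 20.5 ± 1.04 CPM (WT) and 20.9 ± 1.44 CPM (KO; SD, n = 5 each; log2 fold change 0.03, SE 0.06, edgeR adjusted p = 0.801). Of 9 other SLC9 exchangers compared 5 were tested, 0 were called by edgeR or limma-voom and 1 by DESeq2, and 2 had an unadjusted p under 0.05, with a median log2 fold change of -0.27. Slc9a7 and Slc9b2 were the most abundant of these per length. Slc9a7 was at 26.3 ± 6.44 CPM (WT) and 20.1 ± 6.51 CPM (KO; SD, n = 5 each; log2 fold change -0.38, SE 0.23, edgeR adjusted p = 0.285). Its log2 fold change was -0.079 with the epithelial, -0.19 with the keratocyte and -0.35 with the photoreceptor markers as a covariate. With the KO group limited to KO 3 and KO 4 it was -0.34, and the part of other cell types was not tested. Slc9b2 was at 20.5 ± 3.55 CPM (WT) and 17.0 ± 2.31 CPM (KO; SD, n = 5 each; log2 fold change -0.27, SE 0.12, edgeR adjusted p = 0.149). Both genes overlapped between the groups. Slc9a5 (NHE5), an exchanger known from brain and named after its values were seen, was at 1.04, 3.44, 2.80, 1.47 and 1.66 CPM in WT and 1.55, 1.01, 1.13, 0.698 and 0.947 CPM in KO. Its log2 fold change was -0.96 (SE 0.32, edgeR adjusted p = 0.0599), and it was called by DESeq2 (adjusted p = 0.0153), by edgeR without WT 1 (adjusted p = 0.0236) and by edgeR with the keratocyte markers as a covariate (log2 fold change -1.07, adjusted p = 0.0171).

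Kinases and ubiquitin ligase parts that control SLC12 proteins did not pass by edgeR. Of 11 listed genes 10 were tested and 0 were called by edgeR or limma-voom, against 2 by DESeq2 (Wnk2 and Wnk4, named after their values were seen), and 2 had an unadjusted p under 0.05. The median log2 fold change was 0.00. Cul3, the scaffold of the ligase that degrades WNK kinases, stood at 89.5 ± 2.45 and 89.9 ± 1.51 CPM (SD, n = 5 each), and Wnk1 at 290.1 ± 14.7 and 307.7 ± 47.9 CPM (edgeR adjusted p = 0.609). Stk39 (SPAK) and Oxsr1 (OSR1), the kinases that act directly on the cotransporters, were named after their values were seen. Stk39 was at 30.8 ± 1.41 and 30.9 ± 1.95 CPM and Oxsr1 at 39.4 ± 1.42 and 39.3 ± 3.12 CPM in WT and KO (SD, n = 5 each). Wnk4 did not reach the edgeR filter with all libraries, and without KO 3 it was tested and called higher (log2 fold change 2.48, edgeR adjusted p = 0.0301). It was at 0.0198 to 0.268 CPM in WT, 0.400 in KO 2, 0.0435 in KO 3 and 0.107 in KO 4. It reached 0.811 CPM in KO 1 and 1.63 CPM in KO 5, the 2 libraries with the most epithelial transcripts, whose part in it was not tested.

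Among genes for proteins that bind SLC9 exchangers, the transcript of the scaffold NHERF1 rose. Of 7 listed genes 6 were tested, 2 rose (Slc9a3r1 and Tesc), 0 fell, and 5 had an unadjusted p under 0.05; 7.59% of all tested genes were called higher. DESeq2 called 3 and limma-voom 2, and the count by edgeR was 4 without WT 1 and 1 without WT 3, WT 5 or KO 4. Slc9a3r1 encodes NHERF1, a scaffold with PDZ domains that ties exchangers such as NHE3 to ezrin and the actin cytoskeleton. Slc9a3, the gene of NHE3, was at most at 0.152 CPM in any library. Slc9a3r1 was at 10.8, 10.2, 9.59, 8.78 and 10.2 CPM in WT 1 to WT 5. KO 1 to KO 5 had 25.7, 20.7, 17.3, 23.1 and 23.7 CPM, all above the WT libraries; 5.88% of all tested genes had KO libraries all above WT. The log2 fold change was 1.15 (SE 0.10, edgeR adjusted p = 2.77e-05). KO 3, the library with the fewest epithelial transcripts of all 10, had 17.3 CPM, and with the KO group limited to KO 3 and KO 4 the value was 1.03 (SE 0.12, edgeR adjusted p = 9.21e-04).

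Tesc, which encodes tescalcin, a calcium-binding protein, rose from 0.135 ± 0.0408 to 0.307 ± 0.0833 CPM (SD, n = 5 each; log2 fold change 1.17, SE 0.30, edgeR adjusted p = 0.0214). It rested on 4 to 16 reads per library and was not called without WT 3, WT 5 or KO 4 (log2 fold changes of 1.06, 1.12 and 1.03, edgeR adjusted p of 0.0581, 0.0573 and 0.0516), nor with the KO group limited to KO 3 and KO 4 (edgeR adjusted p = 0.127). Ezr (ezrin) was at 158.9 to 173.3 CPM in WT and 173.6 to 210.7 CPM in KO, with a log2 fold change of 0.19 (SE 0.06) that did not pass by edgeR with TMM (adjusted p = 0.0584). It passed by DESeq2 (adjusted p = 0.0279) and by edgeR with upper quartile factors (0.0455), with total counts (0.0235), without KO 3 (0.0418) and without KO 5 (0.0353). Chp1, a calcium-binding partner of SLC9 exchangers, was at 131 ± 13.4 CPM (WT) and 146 ± 6.66 CPM (KO; log2 fold change 0.16, SE 0.07, edgeR adjusted p = 0.155). It was called without WT 1 (0.22, edgeR adjusted p = 0.0281) and with the keratocyte markers as a covariate (0.21, edgeR adjusted p = 0.042).

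**Figure D4:**
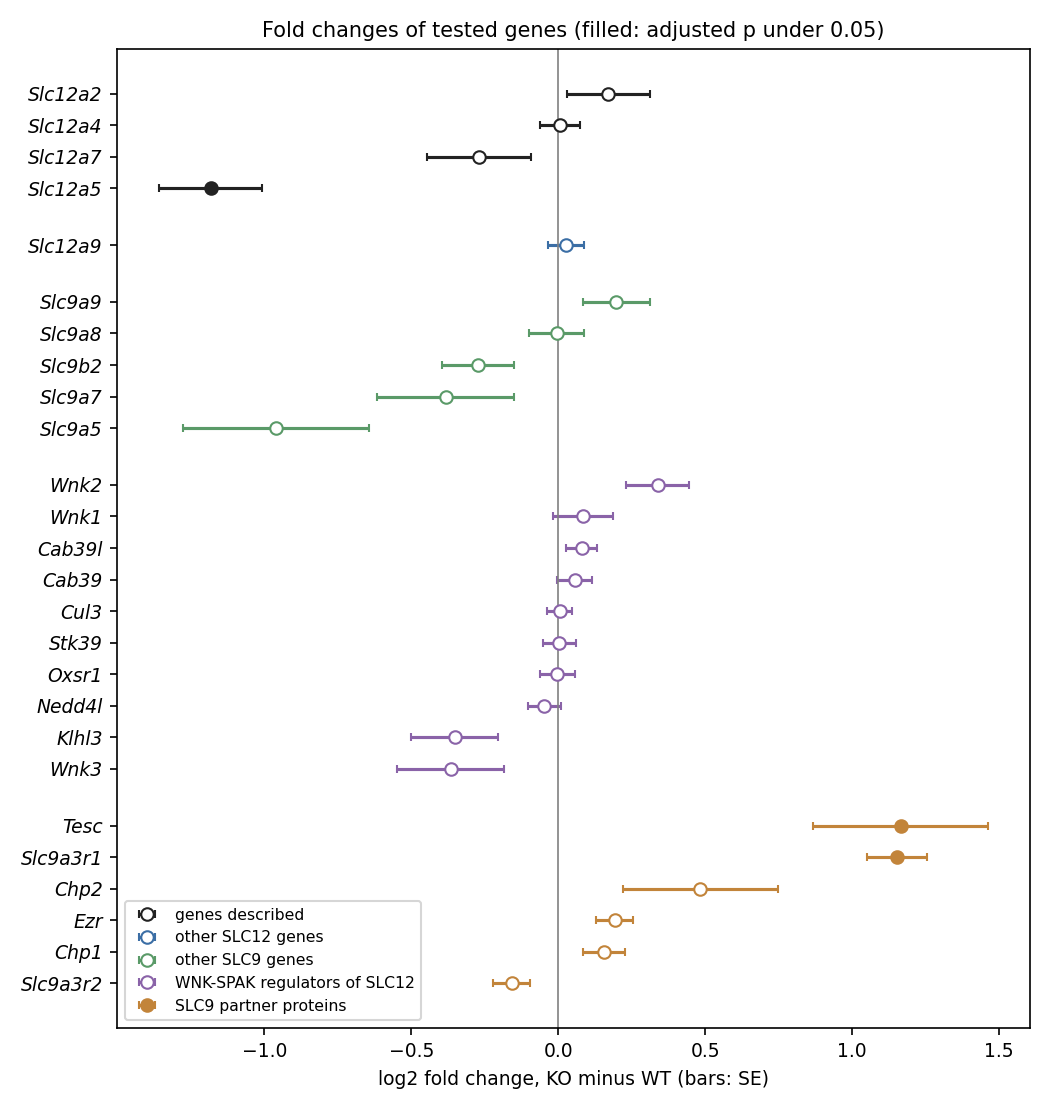
Log2 fold change (KO minus WT) with its SE for the tested genes, grouped as the genes described, other SLC12 genes, other SLC9 genes, WNK-SPAK regulators and SLC9 partner proteins; filled points had an edgeR adjusted p under 0.05. Slc12a5 (-1.18), Slc9a3r1 (1.15) and Tesc (1.17) are the filled points.

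The genes with the most similar profile over the 10 libraries were found by the root mean square difference of log2 CPM, each taken relative to its WT mean, among tested genes whose mean reached 5 CPM. For Slc12a5 they were Fgf11, a fibroblast growth factor homologous factor (difference 0.20), Plod2, a lysyl hydroxylase of collagen (0.21), and Lrrtm1, a leucine-rich repeat membrane protein (0.22). Fgf11 was at 23.2 ± 2.75 CPM in WT and 11.6 ± 1.11 in KO, Plod2 at 81.3 ± 9.11 and 41.8 ± 2.93, and Lrrtm1 at 15.1 ± 1.48 and 7.41 ± 0.985 (SD, n = 5 each). Being chosen for their likeness to Slc12a5, they had to be lower in KO. For Slc12a2 they were Acsl1 (0.09), a fatty acid CoA ligase, Mindy3 (0.13) and Car5b (0.14), a mitochondrial carbonic anhydrase. Galnt2 (0.04), Spg7 (0.04) and Fkbp10 (0.05) came closest to Slc12a4, and Zfp369 (0.10), Ikzf4 (0.10) and Amotl2 (0.12) to Slc12a7.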

How the data were processed

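Messenger RNA of 5 WT and 5 KO libraries was measured. Per the labels' protocols, RNA had an integrity number over 7, and stranded poly(A) libraries were made from 100 ng of it with 12 PCR cycles and read paired-end (75 cycles). The authors deposited 1 table of raw counts for each gene and library. GRCm38.p6 is the build in the submitters' processing notes, which also list HISAT2 2.1.0 and Subread 1.6.4 with featureCounts, after trimming with Trim Galore 0.6.4 (cutadapt 2.4). The counting's treatment of strand and shared exons and its annotation release are details not given in the sources used here; genes that overlap others are therefore uncertain.

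All 55450 identifiers matched GENCODE vM21. The test was that of edgeR 4.0.16 (R 4.3.3), after filterByExpr (minimum count 10, minimum total 15) and TMM scaling, with the quasi-likelihood F test of KO against WT and no covariate; an adjusted p under 0.05 over the 17729 genes tested was a call. SEs and 95% intervals come from that model, and edgeR's common dispersion gave a biological coefficient of variation of 16.3%. Promoter stretches come from RefSeq (GRCm38.p6), and those of Slc12a4 and Slc12a5 are shown; no stretch was used here for Slc9a2 or Slc12a2. The members and gene lists were chosen with earlier results of these data known. Genes named were the 5 members, called genes of the other 4 lists and the 2 most abundant per length of each, and the 3 most similar genes per tested member, without predicted genes; other genes named with their values, neighbours in the order of levels and marker genes included, were named after their values were seen. Some listed genes are not reported here and stay out of the lists, sums and covariates. Alternatives were other scalings, DESeq2 1.42.0, limma-voom (limma 3.58.1), other count filters, a replicate block, marker covariates (the photoreceptor one added after the data had been seen), the KO group limited to KO 3 and KO 4, and each library left out. No library of a group was a copy of another (chi-square over degrees of freedom 14.7 to 87.5 for pairs within a group), and the labels do not say whether pools share animals, so p-values measure the spread between these samples. Without molecular identifiers, PCR copies of 1 molecule can be counted as several reads, so the intervals' counting part is a lower limit.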

Additional observations from a re-analysis of the deposited data

Results flagged for a closer look

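In 54 groups of 5 libraries (the 5 genes and the tested genes of the other lists, in each genotype), 2 held a library far from the other 4 by Dixon's gap test, where chance flags about 1 in 20. Slc9a2 was at 0.429 CPM in KO 4 and at 0.0710 to 0.169 CPM in the other KO libraries. Nedd4l, a ubiquitin ligase, was at 21.5 CPM in KO 3 and at 18.6 to 19.4 CPM in the other KO libraries.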

How the results depend on the processing

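Slc12a5 was lower in KO in 22 of 22 alternatives (log2 fold change -1.28 to -1.03) and called in 21 (adjusted p 7.12e-07 to 0.0732), the exception being the photoreceptor covariate (-1.03). Slc9a3r1 was higher and called in 22 of 22 (0.97 to 1.23, adjusted p at most 0.00736). Slc12a2, Slc12a4 and Slc12a7 were not called in any. Slc12a2 turned to -0.13 with the epithelial and -0.24 with the photoreceptor covariate and to -0.11 with the KO group limited to KO 3 and KO 4. Slc12a7 turned to 0.11 with the photoreceptor covariate and 0.085 with KO 3 and KO 4. Leaving out each library gave -0.040 to 0.042 for Slc12a4, -0.27 to 0.52 for Slc9a2, -0.0071 to 0.061 for Slc12a9 and -0.0057 to 0.018 for Cul3. Cul3 was at -0.0059 with the photoreceptor covariate. The cause of these turns was not tested.

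The labels do not say whether the replicate numbers pair the pools. Correlations of same-numbered libraries' deviations were -0.42 to 0.09, which cannot settle it, since uneven epithelial transcripts add to these deviations. With the number as a replicate block, 1691 genes were called in place of 2716, and 1 SLC9 partner in place of 2, since Tesc was at edgeR adjusted p = 0.0629. Over all genes 1209 were called with the epithelial covariate, 411 with the photoreceptor covariate, 1105 with KO 3 and KO 4, 1024 at an adjusted p under 0.01, and 1815 to 3094 with a library left out. With the photoreceptor covariate 0 of the 5 genes were called. Other SLC9 genes had 1 call with DESeq2, 2 with the keratocyte covariate (Slc9a5 and Slc9a9) and 0 to 1 with a library left out. WNK-SPAK regulators had 1 call with upper quartile factors, 2 with DESeq2, 1 with the filter of 1 CPM in 5 libraries and 0 to 2 with a library left out. SLC9 partner proteins had 1 call with that filter, with the epithelial or the photoreceptor covariate, with KO 3 and KO 4, and at an adjusted p under 0.01, and 1 to 4 with a library left out. With upper quartile factors, total counts or DESeq2 there were 3, Ezr among them, and with the keratocyte covariate 3, Chp1 among them. Slc9a2 has no value in fits with covariates or blocks, since its counts did not reach the filter; without a filter it was at 0.26 (SE 0.53, edgeR adjusted p = 0.798). Slc9a2 had 1 to 16 reads and Tesc 4 to 16 reads per library; the part of depth was not tested.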
